A study of Arabidopsis thaliana with 12 samples.

Results

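Oligogalacturonides (OGs), short fragments of the pectin backbone of the plant cell wall, were compared with a treatment without elicitor in roots of Arabidopsis thaliana seedlings. The comparison rests on 6 arrays of 12 in the series, namely the 3 biological replicates labelled OGs and the 3 labelled as no treatment control. All were roots of 7-day-old seedlings of the ecotype Col-0, collected 3 h after transfer of the seedlings to the treatment. The other 6 arrays, 3 of roots treated with chitin and 3 of roots treated with cellobiose, served to estimate the spread and to set the OGs response beside those of other elicitors. Seedlings had been grown on a nylon mesh through which the roots passed, so that roots could be separated from shoots. The labels state neither the doses of the elicitors nor the chain length of the OGs.

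Pectin is rich in homogalacturonan, a chain of galacturonic acid, and OGs are released from it when a pathogen's or the plant's own polygalacturonases cut the chain. Plants perceive such fragments of their own wall as a sign of damage, and the response includes a burst of reactive oxygen, defence gene expression and changes in auxin response. OGs can in turn be oxidised by berberine bridge enzyme-like oxidases, which lowers their activity as elicitors. Chitin oligomers come from fungal walls, and cellobiose is a fragment of cellulose.

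Expression was measured on Affymetrix ATH1 arrays as log2 probe set values, and levels below are on that scale. The medians of the 12 arrays lay between 6.3 and 6.41. Arrays of a group correlated with each other at r of 0.993 to 0.994 among OGs roots and 0.992 to 0.994 among control roots, across probe sets that are not independent replicates. OGs replicate 3 stood apart in the manufacturer's RNA quality probe sets. Its actin signal at the 3′ end exceeded that at the 5′ end by 2.11 on the log2 scale, against 1.55 and 1.46 in OGs replicates 1 and 2 and 1.46 to 1.57 in control roots. For GAPDH the same measure was 1.46 in OGs replicate 3, 0.357 and 0.540 in the other OGs arrays, and 0.729 to 0.835 in control roots. Its part in the results below was not tested, so counts of calls are also given without that array. These are counts of genes and probe sets against control, and of probe sets against the other elicitors. The root label could be checked only in part, because none of 10 marker genes of root tissue had a probe set with a gene name. The 5 measured root hair genes averaged 8.49 to 8.90 on the OGs arrays and 8.84 to 9.52 on the control arrays, and the ranges overlapped. As markers of green shoot tissue, 13 nuclear photosynthesis genes were measured. They averaged 7.09 to 7.92 on the OGs arrays and 8.28 to 9.01 on the control arrays.

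At 3 h, 186 annotated genes were higher and 108 were lower in OGs roots than in control roots. These 294 genes are 2.2 percent of the 13356 genes tested (limma, Benjamini-Hochberg adjusted p under 0.05), with 1.39 percent higher and 0.809 percent lower. The median log2 difference was 0.73 among the higher genes and -0.65 among the lower ones, against -0.01 over all genes. At 2-fold or more, 54 genes were higher and 12 were lower, which is 0.494 percent of genes. All 294 genes moved in one direction in the 3 replicate-number pairs, which a call makes likely. The share of all genes that did so was not counted. In 287 of the 294 genes the OGs and control arrays did not overlap, where 16.4 percent of all genes showed no overlap. Over all 22746 probe sets 366 were higher (1.61 percent) and 237 lower (1.04 percent), 2.65 percent in all, and 292 of these 603 had no gene in the annotation used. Without OGs replicate 3, 246 probe sets were higher and 90 lower. Among genes that fit gave 120 higher and 43 lower, and 131 of the 294 genes were still called. The same fit without OGs replicate 1 or 2 left 113 and 125 of them called. The plot of difference against level shows that the largest increases came from genes of low to middle level.

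**Figure D1:**
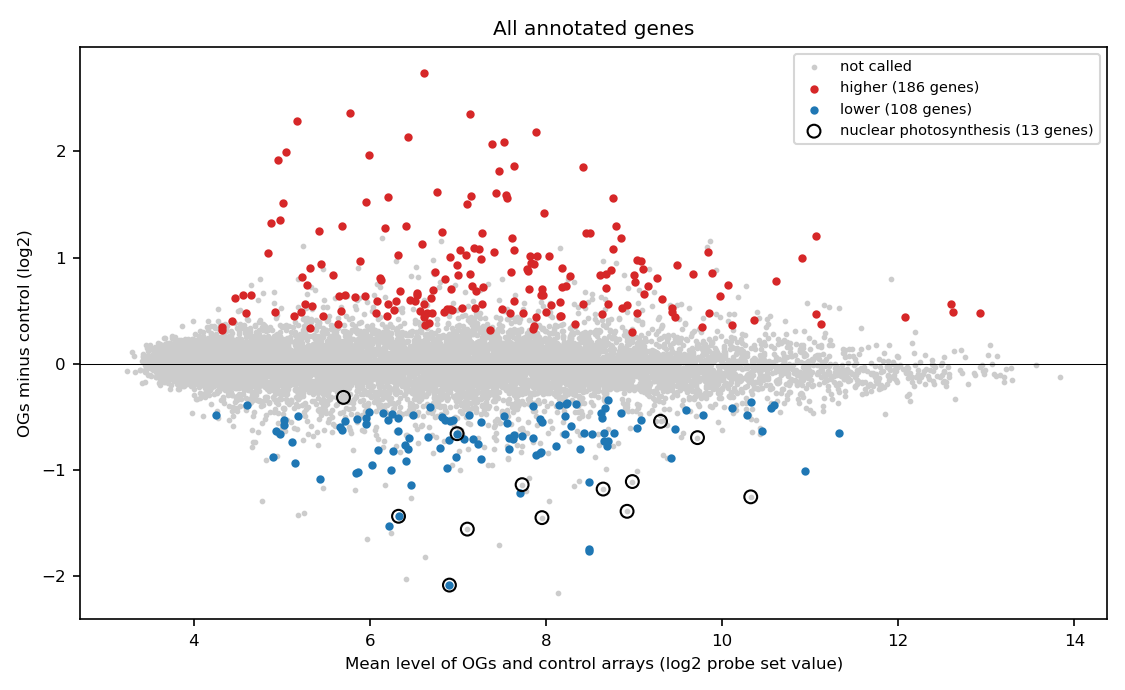
Each point is 1 of 13356 annotated genes, with the mean log2 level of the OGs and control arrays on the x axis and the fitted log2 difference, OGs minus control, on the y axis. Red points are the 186 genes called higher, blue points the 108 called lower, and black circles mark the 13 measured nuclear photosynthesis genes, which all lie below 0.

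The largest increase among annotated genes was that of AT1G72060, which encodes a serine-type protease inhibitor. Its levels were 8.17, 7.80 and 7.97 in OGs roots, against 5.64, 5.23 and 4.87 in control roots. The groups lay far apart, with all OGs arrays above all control arrays. The difference was 2.74 ± 0.18 on the log2 scale, or 6.67-fold (limma, adjusted p = 0.000148, n = 3 each). Here and below, ± gives the SE from the limma fit of all 12 arrays, not from the OGs and control arrays alone. A second inhibitor gene, AT2G38870, rose by 0.49 ± 0.08 (adjusted p = 0.0134), and its call was lost without OGs replicate 2, OGs replicate 3 or control replicate 2 (adjusted p 0.0501 to 0.0650). These were 2 of the 6 measured genes of a list of 14 protease inhibitors. The other 4 lay between -0.10 and 0.05, and the median of the 6 was -0.004.

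Chitinases, which cut the chitin of fungal walls, gave 3 higher and 0 lower among 15 measured of 24 listed genes, with a median of 0.25. AT2G43620 had levels of 8.74, 8.24 and 7.97 in OGs roots, against 5.77, 5.31 and 6.79 in control roots. Control replicate 3 was the highest of its group, yet it stayed below every OGs array. The increase was 5.12-fold (log2 2.36 ± 0.30, adjusted p = 0.00318). CHI rose to 9.29, 9.56 and 9.18 in OGs roots, against 7.42, 7.25 and 7.78 in control roots, which is 3.62-fold (adjusted p = 0.000291). AT4G01700, the brightest of the 3, rose by 1.00 ± 0.10 (adjusted p = 0.000807). The 12 chitinases that were not called lay between -0.35 and 0.57. None of the 6 leave-out fits gave fewer than 3 calls in the list.

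Berberine bridge enzyme-like oxidases, flavoproteins that act on wall fragments and on aromatic metabolites, had 6 higher members and 0 lower among 22 measured of 27 listed. The median of the 22 was 0.11, and 12 of them had means under log2 5 in both groups, where a difference is hardly measurable. AT1G26420 had levels of 6.88, 6.17 and 5.87 in OGs roots, against 4.03, 3.92 and 4.13 in control roots. Since the control mean lay under log2 5, the floor used here for dim probe sets, its arrays were raised to 5 and the increase is given as at least 2.48-fold (adjusted p = 0.000329). On the same terms AT1G26380 rose at least 1.88-fold (adjusted p = 0.00757), with OGs arrays at 6.35, 5.86 and 5.53 and control arrays at 3.91, 3.93 and 4.15. The groups did not overlap for either gene.

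AT4G20830 encodes OGOX1, an oxidase that acts on OGs themselves. Its levels were 10.64, 10.17 and 10.30 in OGs roots, against 9.32, 9.22 and 9.41 in control roots. All OGs arrays were higher, by 2.07-fold on average (log2 1.05 ± 0.13, adjusted p = 0.00318). AT5G44390 rose by 0.80 ± 0.12 (adjusted p = 0.00731), AT1G30700 by 0.64 (adjusted p = 0.0224) and AT5G44380 by 0.45 (adjusted p = 0.0294). The calls of AT1G30700 and AT5G44380 were each lost in 4 of the 6 leave-out fits, both without OGs replicate 1 or 2, the first also without control replicate 1 or 2 (adjusted p up to 0.0982) and the second without OGs replicate 3 or control replicate 3 (adjusted p up to 0.112). AT4G20860, whose product oxidises cello-oligosaccharides, differed by 0.48 and was not called (adjusted p = 0.057). Leaving out 1 array left 4 to 6 higher members, with 5 without OGs replicate 3.

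**Figure D2:**
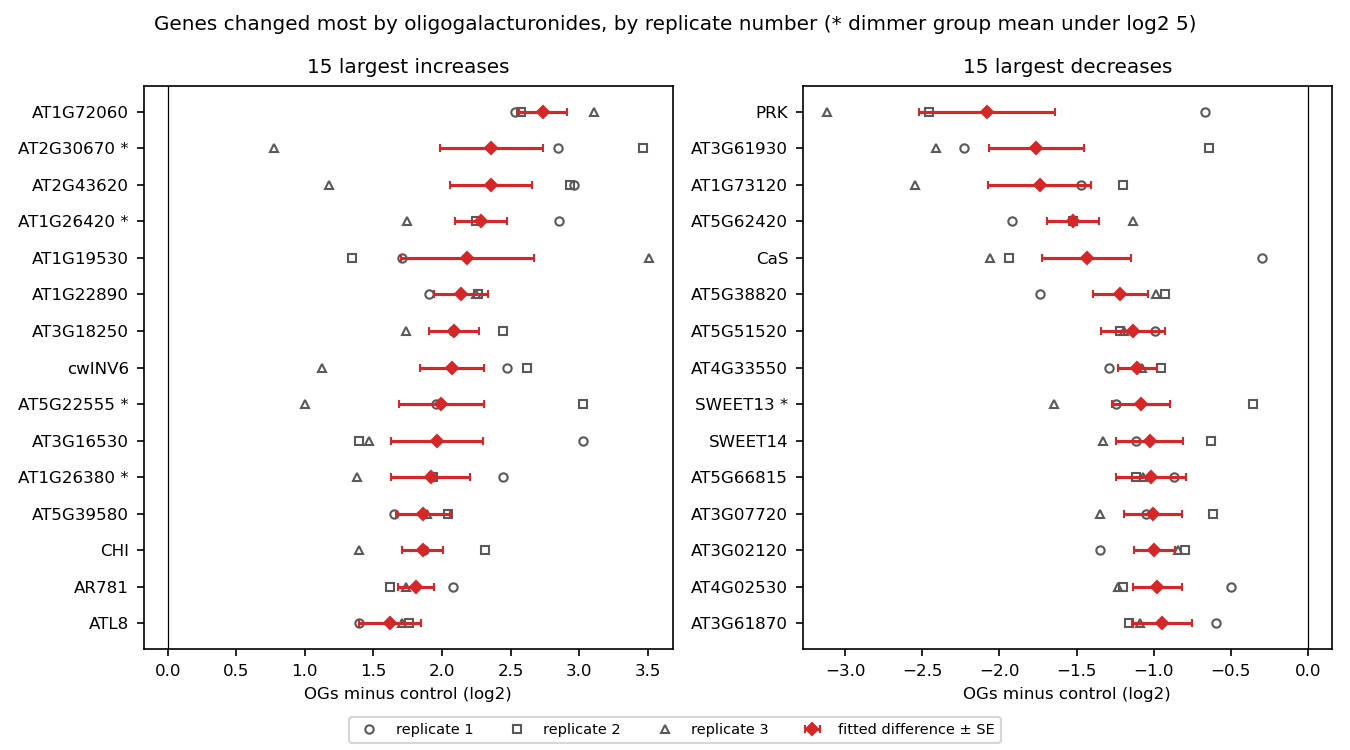
The fitted log2 difference, OGs minus control, with its SE (red) and the difference within each replicate number (grey symbols) are shown for the called genes with the 15 largest increases (left) and the 15 largest decreases (right). AT1G72060 leads the increases at 2.74 and PRK the decreases at -2.08. Only genes whose replicate numbers all lie on one side of 0 were eligible to be shown.

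Class III peroxidases, secreted enzymes that make or use hydrogen peroxide in the wall, moved in both directions. Of 55 measured among 73 listed, 4 were higher, 3 were lower and the median was -0.03. AT5G39580 had levels of 8.58, 8.74 and 8.37 in OGs roots, against 6.93, 6.69 and 6.48 in control roots. That is 3.63-fold higher (log2 1.86 ± 0.20, adjusted p = 0.00108). A run of neighbouring loci also rose, with AT5G64110 at 1.23 ± 0.13 (adjusted p = 0.00108), AT5G64120 at 0.57 ± 0.08 (adjusted p = 0.00445) and AT5G64100 at 0.48 (adjusted p = 0.0297, lost in all leave-out fits but that without control replicate 2, up to 0.0989).

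The 3 lower peroxidases were AT1G68850, AT1G34510 and AT4G26010. AT1G68850 had levels of 6.24, 7.23 and 6.96 in OGs roots, against 7.75, 7.59 and 7.77 in control roots, a fall of 1.85-fold (adjusted p = 0.0349). AT1G34510 fell by 0.73 on the log2 scale (adjusted p = 0.0132) and AT4G26010, which is expressed in root hairs, by 0.65 (adjusted p = 0.0203). Without OGs replicate 3 none of the 3 was called. AT1G34510 also lost its call without OGs replicate 2 or control replicate 1 (adjusted p up to 0.0635) or with no replicate block (adjusted p = 0.0597), and AT4G26010 without OGs replicate 2 or control replicate 1 or 2 (adjusted p up to 0.0957), while between 3 and 6 peroxidases were higher over the 6 leave-out fits. AT4G26010 was the 1 called gene among the 5 measured of 27 root hair genes, whose median was -0.43. The largest difference in that list belonged to XTH26, an enzyme that cuts and rejoins xyloglucan, at -1.40 without a call (adjusted p = 0.0797).

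Genes known to respond early to elicitors were represented by 6 of 30 listed members, of which 2 were higher and 0 lower, with a median of 0.54. WRKY53, which regulates transcription in defence and in leaf senescence, had levels of 6.89, 6.86 and 6.77 in OGs roots, against 5.82, 5.78 and 5.82 in control roots. The groups were tight and well apart, at 2.04-fold (log2 1.03 ± 0.16, adjusted p = 0.01). STZ, a zinc finger repressor of stress responses, had 7.82, 7.68 and 7.32 in OGs roots, against 6.54, 6.50 and 6.69 in control roots. Its increase was of the same size (log2 1.03 ± 0.19, adjusted p = 0.0215). PUB24, a ubiquitin ligase that dampens immune responses, differed by 0.89 and was not called (adjusted p = 0.0686). WRKY53 was lost without OGs replicate 1 (adjusted p = 0.0528), and STZ without OGs replicate 1 or 2 or control replicate 1 or 2 (adjusted p 0.0594 to 0.0851).

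Among receptors and kinases of elicitor perception 6 of 27 were measured. AT1G56145, a kinase with malectin and leucine-rich repeat domains that takes part in the response to cello-oligomers, rose by 0.59 ± 0.09 (adjusted p = 0.0105). It was the 1 called member, its call was lost without OGs replicate 2 (adjusted p = 0.0565), and the median of the 6 was 0.29. AT1G16260, a wall-associated kinase-like gene, differed by 0.51 (adjusted p = 0.0894), BIK1, a kinase that acts behind immune receptors, by 0.26 (adjusted p = 0.159), and FER, a receptor that binds pectin, by -0.05 (adjusted p = 0.882).

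Small secreted and signalling peptides had 2 higher members of 6 measured among 11 listed, with a median of 0.30. AT1G22890 rose to 7.5, 7.64 and 7.36 in OGs roots, against 5.59, 5.38 and 5.11 in control roots. This was a clear separation of 4.41-fold (log2 2.14 ± 0.20, adjusted p = 0.000569). AT1G65500 rose at least 2.07-fold (adjusted p = 0.0294), and lost its call without OGs replicate 1 or 2 or any 1 control array (adjusted p 0.0514 to 0.10).

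Auxin response and transport genes were measured for 11 of 35 listed, with 2 higher, 0 lower and a median of 0.09. GH3.3 encodes an enzyme that joins the auxin indole-3-acetic acid to amino acids. Its levels were 8.33, 7.79 and 7.53 in OGs roots, against 6.96, 6.45 and 6.55 in control roots. All OGs arrays were above the controls, by 2.34-fold (log2 1.23 ± 0.12, adjusted p = 0.000802). LBD16, a regulator of lateral root initiation, rose by 0.48 ± 0.09 (adjusted p = 0.0267), a call that was lost in 5 of the 6 leave-out fits (adjusted p 0.0532 to 0.119), all but that without control replicate 3. The other GH3 genes measured were WES1 at 0.76 (adjusted p = 0.0618), GH3.1 at -0.03 and GH3.17 at -0.02.

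Several other genes among the 15 largest increases belong to no list of defence enzymes. AT3G18250 rose 4.25-fold (adjusted p = 0.000422), with OGs arrays at 8.63, 8.59 and 8.48 and control arrays at 6.55, 6.14 and 6.74. AR781 rose 3.51-fold (adjusted p = 0.000283) and ATL8, a RING-type ubiquitin ligase, 3.08-fold (adjusted p = 0.00469). AT3G16530, a lectin, had 8.31, 6.24 and 6.35 in OGs roots, against 5.28, 4.84 and 4.88 in control roots. OGs replicate 1 was far above the other 2 OGs arrays, and the increase of 3.9-fold (adjusted p = 0.0136) missed the threshold once control replicate 1 was left out (adjusted p = 0.0561). AT2G30670, a tropinone reductase-like dehydrogenase, had 7.23, 7.73 and 5.93 in OGs roots, against 4.38, 4.26 and 5.15 in control roots. It rose at least 3.75-fold (adjusted p = 0.0105), with OGs replicate 3 lowest of its group, and without that array the fitted difference was 2.98 in place of 2.36. Its call was lost without OGs replicate 1 or 2 (adjusted p 0.0526 and 0.0571). AT5G22555 rose at least 2.06-fold (adjusted p = 0.00846).

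Sugar carriers and invertases changed in both directions, with 1 higher and 2 lower among 18 measured of 31 listed and a median of 0.02. The higher gene was cwINV6, annotated as a cell wall invertase and known to act as a fructan exohydrolase. Its levels were 8.28, 8.98 and 7.99 in OGs roots, against 5.81, 6.36 and 6.87 in control roots, a gap between groups of 4.21-fold on average (adjusted p = 0.00133). The lower genes were the sugar exporters SWEET13 and SWEET14. SWEET14 had 5.28, 5.24 and 5.46 in OGs roots, against 6.4, 5.87 and 6.78 in control roots, and fell by 1.03 on the log2 scale (adjusted p = 0.0356). SWEET13 had an OGs mean under log2 5 and was at least 1.91-fold lower (adjusted p = 0.0158). The 14 other SWEET genes measured were not called, and neither SWEET13 nor SWEET14 was called without OGs replicate 1, OGs replicate 3 or control replicate 1. SWEET14 also lost its call without OGs replicate 2 or control replicate 3 (adjusted p up to 0.131), and SWEET13 reached an adjusted p of 0.0720 at most.

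Pectin modification genes, which trim or protect the polymer that OGs come from, had 0 higher and 1 lower among 14 measured of 37 listed, with a median of -0.12. Of the 14, 12 lay below 0, and the lowest, at -1.29, was not called. The lower gene, AT5G51520, belongs to the invertase and pectin methylesterase inhibitor family. Its levels were 6.20, 6.06 and 5.46 in OGs roots, against 7.19, 7.28 and 6.65 in control roots. It fell by 1.13 ± 0.21 on the log2 scale (adjusted p = 0.0196), and the call was lost without OGs replicate 2 or 3 or control replicate 1 or 2 (adjusted p 0.0659 to 0.0777). ADPG1, a polygalacturonase, was at -0.02. The list does not hold every pectin gene on the array. Outside it, AT3G47380 of the inhibitor family (1.30, adjusted p = 0.000291) and the pectin methylesterases AT3G10720 (0.93, adjusted p = 0.0215) and AT2G47550 (0.61, adjusted p = 0.0477) were called higher. They were picked after their values were seen, with no count over their families. AT3G10720 lost its call in 3 of the 6 leave-out fits and AT2G47550 in all 6. The 15 measured of 49 xyloglucan endotransglucosylase, expansin and cellulose synthase genes had a median of -0.25, and none was called.

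Genes known from low oxygen responses had 3 higher and 1 lower among 19 measured of 37 listed, with a median of 0.11. AT1G33055 had levels of 6.84, 6.66 and 6.91 in OGs roots, against 5.64, 5.85 and 5.08 in control roots. The groups did not overlap, at 2.43-fold (log2 1.28 ± 0.20, adjusted p = 0.00937). AT1G19530 had 8.99, 8.98 and 8.96 in OGs roots, against 7.28, 7.64 and 5.46 in control roots. The 3 OGs arrays were nearly equal while control replicate 3 was low, and without it the difference was 1.40 in place of 2.19. That gene's adjusted p of 0.0438 rose to between 0.0602 and 0.135 without any 1 OGs array or without control replicate 1. AT4G27450 rose by 0.89 (adjusted p = 0.0245, lost without OGs replicate 1 or 3 or control replicate 1 or 3, 0.0502 to 0.0995), and AT5G66985 fell by 0.53 (adjusted p = 0.0072). PDC2, a pyruvate decarboxylase of fermentation, was at -0.17. Without OGs replicate 3, 1 member was higher.

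**Figure D3:**
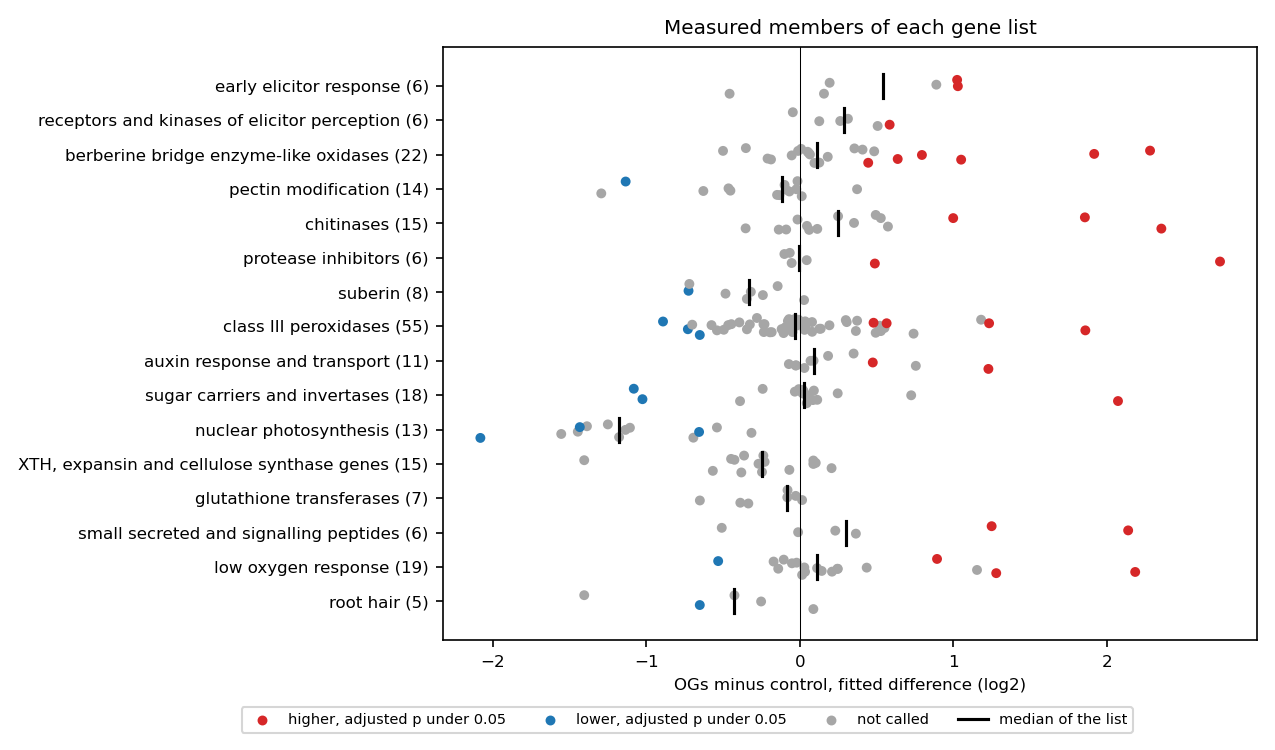
Points are the measured members of each gene list with 5 or more of them (number in parentheses), placed by their fitted log2 difference, OGs minus control, with called members in red (higher) or blue (lower) and a black bar at each list's median. Medians lie within 0.6 of 0 in every list but nuclear photosynthesis, where the median is -1.18.

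Nuclear genes of photosynthesis gave 3 lower and 0 higher among 13 measured of 60 listed. All 13 had a negative difference, and their median was -1.18 against -0.01 over all genes. PRK, the phosphoribulokinase of the Calvin cycle, had levels of 6.81, 5.15 and 5.62 in OGs roots, against 7.48, 7.61 and 8.74 in control roots. Both groups were spread out and did not overlap, and the fall was 4.23-fold (log2 -2.08 ± 0.44, adjusted p = 0.0357). CaS, a calcium-binding protein of the thylakoid, had 6.07, 5.36 and 5.39 in OGs roots, against 6.38, 7.30 and 7.45 in control roots, a fall of 2.70-fold (adjusted p = 0.0297). NdhS, a subunit of the chloroplast NADH dehydrogenase-like complex, fell by 0.66 (adjusted p = 0.0231).

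The mean of the 13 genes was 7.92, 7.09 and 7.42 on the OGs arrays, against 8.28, 8.56 and 9.01 on the control arrays. On the chitin arrays it was 7.40, 6.33 and 7.22, and on the cellobiose arrays 6.95, 7.45 and 7.81. Each treated group thus lay below the same control arrays, and the low level was not particular to OGs. Of the 10 members that were not called, SBPASE at -1.55, LHCB4.2 at -1.45 and PSAE-1 at -1.39 had the largest differences. PRK and CaS lost their calls without OGs replicate 2 or 3 or control replicate 2 or 3 (adjusted p 0.0949 to 0.154 for PRK and 0.0944 to 0.132 for CaS), and without OGs replicate 1 the difference of PRK was -2.71. NdhS lost its call in every leave-out fit but that without control replicate 3 (adjusted p 0.0681 to 0.0893) and in the fit with no replicate block (adjusted p = 0.0926), and the list held 0 to 2 called genes over the 6 leave-out fits, with 0 without OGs replicate 3. In whole roots, fewer cells of a type and less RNA per cell cannot be told apart. Whether the share of green tissue differed between the samples was not tested.

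Transport genes were also found among the decreases. AT5G38820, an amino acid transporter of the root, had 6.74, 7.48 and 7.07 in OGs roots, against 8.48, 8.41 and 8.06 in control roots. It fell 2.33-fold (adjusted p = 0.00627) with no overlap. AT3G58060, a manganese transporter of the cation diffusion family, fell by 0.85 (adjusted p = 0.0349, lost without OGs replicate 1 or 3 or control replicate 1 or 3, 0.0952 to 0.131). These were 2 of the 3 measured of 22 nutrient transport genes, and the third, AT2G26690, was at -0.77 (adjusted p = 0.165).

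Among the other large decreases, AT5G62420, an aldo-keto reductase, had 5.09, 5.81 and 5.47 in OGs roots, against 7.01, 7.34 and 6.60 in control roots. All OGs arrays were lower, by 2.88-fold (adjusted p = 0.00125). AT4G33550, a lipid transfer protein-like gene, was 2.15-fold lower (log2 -1.11 ± 0.13, adjusted p = 0.00144), and AT3G02120 was 1.99-fold lower (adjusted p = 0.0043). AT3G61930 (-1.76, adjusted p = 0.0159), AT1G73120 (-1.74, adjusted p = 0.0245), the Kelch repeat gene AT3G07720 (-1.01, adjusted p = 0.0227), AT3G61870 (-0.95, adjusted p = 0.032) and AT5G66815, which encodes a root signalling peptide of the CEP family (-1.02, adjusted p = 0.045), each lost their calls in 4 to 6 of the 6 leave-out fits, with an adjusted p of at most 0.167. AT4G02530, a thylakoid lumen protein, fell by 0.98 (adjusted p = 0.0118) and lost its call without OGs replicate 2 or 3 (adjusted p 0.0533 and 0.0589).

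Suberin genes, which build the waxy barrier of the endodermis and periderm, had 1 lower member of 8 measured among 25 listed, with a median of -0.33. That gene, the GDSL-type esterase AT1G74460, had 8.0, 8.62 and 8.26 in OGs roots, against 9.03, 9.14 and 8.89 in control roots. It fell by 0.73 ± 0.12 on the log2 scale with no overlap (adjusted p = 0.0103).

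Other pathways could be read through few genes. Of 29 genes of tryptophan and indole defence compounds 2 were measured, and AT2G04400, the indole-3-glycerol phosphate synthase, rose by 0.53 (adjusted p = 0.0477), a call lost in every leave-out fit but that without control replicate 3 (adjusted p 0.0879 to 0.156) and with no replicate block (adjusted p = 0.0525). UGT74B1, a glucosyltransferase of glucosinolate synthesis, was at 0.06. Of 29 phenylpropanoid and lignin genes 3 were measured and none was called, with HCT at -0.06, CCR2 at 0.21 and LAC16 at -0.49. PDF1.2, the defensin that reports ethylene and jasmonate response, was the 1 measured of 30 and was at -0.28 (adjusted p = 0.484). GRX480, a glutaredoxin of salicylate response, was the 1 measured of 16, at 0.19 (adjusted p = 0.525). The 7 measured of 30 glutathione transferases lay between -0.65 and 0.01, with a median of -0.08 and no call. None of the 14 aquaporins listed had a probe set with a gene name.

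The same arrays allowed OGs roots to be set against roots treated with the other elicitors. Against chitin, 163 genes were higher and 262 lower in OGs roots, or 3.18 percent of genes (1.22 percent higher, 1.96 percent lower). Against cellobiose, 63 were higher and 86 lower, or 1.12 percent (0.472 percent higher, 0.644 percent lower). Over all probe sets the share called was 3.57 percent against chitin (1.42 percent higher, 2.15 percent lower) and 1.31 percent against cellobiose (0.567 percent higher, 0.747 percent lower). Without OGs replicate 3, 132 probe sets were higher and 353 lower than with chitin, in place of 323 and 490, and 68 were higher and 97 lower than with cellobiose, in place of 129 and 170. Without chitin replicate 2 the higher count against chitin was 94, and without cellobiose replicate 2 there were 46 higher against cellobiose. These comparisons share the OGs arrays with the comparison against control, so the counts that follow are not independent of it. Of the 186 genes higher in OGs than in control roots, 62 were lower and 15 higher in OGs than in chitin roots, while 41 were higher and 4 lower in OGs than in cellobiose roots. Of the 108 lower genes, 12 were higher and 9 lower than in chitin roots, and 0 were higher and 7 lower than in cellobiose roots. Doses of the 3 elicitors are not given, so these are differences between the treatments as applied.

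The genes named next are those that were called against control and lay furthest below chitin. WRKY53 was at 6.89, 6.86 and 6.77 in OGs roots and at 9.43, 9.98 and 9.08 in chitin roots, a difference of -2.66 ± 0.16 (adjusted p = 1.57e-05). It was at 6.09, 6.03 and 6.19 in cellobiose roots, which did not pass the test against OGs (0.74, adjusted p = 0.0643). Among genes also called against control, AT1G26380 differed most from chitin, at -3.41 ± 0.29 (adjusted p = 9.25e-05), followed by the alpha/beta hydrolase gene AT2G39400 at -2.88 ± 0.17 (adjusted p = 1.47e-05). AT2G15220, whose probe set is of a design that can also detect related sequences, differed by -2.75 ± 0.14 (adjusted p = 3.66e-06). AT2G43620 was lower with OGs than with both, at -2.56 ± 0.30 against chitin (adjusted p = 0.000751) and -1.60 ± 0.30 against cellobiose (adjusted p = 0.0298). The call against cellobiose was lost in every leave-out fit but that without OGs replicate 1 (adjusted p up to 0.179). AT4G20830, the OG oxidase, given here for its role, differed from chitin roots by -0.94 ± 0.13 (adjusted p = 0.00269) and from cellobiose roots by 0.16 (adjusted p = 0.691).

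Other increases were not called lower than with chitin, which does not show that the levels were alike. AT1G72060 differed from chitin by -0.49 ± 0.18 (adjusted p = 0.192) and exceeded cellobiose by 1.46 ± 0.18 (adjusted p = 0.00169). AT1G22890 differed from chitin by 0.07 ± 0.20 (adjusted p = 0.918) and exceeded cellobiose by 1.53 ± 0.20 (adjusted p = 0.0028). GH3.3 was higher with OGs than with either, at 7.28, 7.08 and 6.52 in chitin roots and 6.76, 6.63 and 6.17 in cellobiose roots. The differences were 0.92 ± 0.12 (adjusted p = 0.00146) and 1.36 ± 0.12 (adjusted p = 0.000182). AT1G33055 was likewise higher than with chitin (1.22 ± 0.20, adjusted p = 0.00671) and cellobiose (1.27 ± 0.20, adjusted p = 0.0109), the second of which was lost without OGs replicate 1 or 3 or cellobiose replicate 2 (adjusted p up to 0.0780).

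Among annotated genes called both against control and against chitin, AT1G19960 showed the largest excess over chitin, with 7.66, 8.46 and 7.70 in OGs roots, against 5.87, 5.92 and 5.74 in chitin roots, 6.15, 6.06 and 6.58 in cellobiose roots and 7.13, 6.55 and 6.98 in control roots. OGs arrays were the highest of the 12, by 2.1 ± 0.23 over chitin (adjusted p = 0.000442), 1.68 ± 0.23 over cellobiose (adjusted p = 0.00383) and 1.06 ± 0.23 over control (adjusted p = 0.0384). Its call against control was lost without any 1 OGs array or control replicate 2 or 3 (adjusted p 0.0528 to 0.114). AT2G30670 exceeded chitin by 1.84 ± 0.38 (adjusted p = 0.0224) and was also higher than with cellobiose (adjusted p = 0.0239), where the mean lay under log2 5. Both calls were lost without OGs replicate 1 or 2, the first also without chitin replicate 1 or 2 (adjusted p up to 0.119) and the second without any 1 cellobiose array (adjusted p up to 0.129). AT3G59710 (1.47 ± 0.15, adjusted p = 0.000289) and AT1G66800 (1.27 ± 0.11, adjusted p = 0.000102), both of dehydrogenase families, and the cysteine-rich secretory repeat gene AT5G41280 (1.42 ± 0.25, adjusted p = 0.01) were the other genes among the 5 with the largest excess over chitin, counted only over genes also called against control. Genes not called against control, such as AT1G62770 of the pectin methylesterase inhibitor family (1.63 over chitin, adjusted p = 0.00177), were outside that count. AT5G41280 lost its call against control without OGs replicate 1 or 2 or control replicate 1 or 2 (adjusted p 0.0513 to 0.0657), and that against chitin without OGs replicate 1 or 2 or chitin replicate 2 (adjusted p up to 0.0590).

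**Figure D4:**
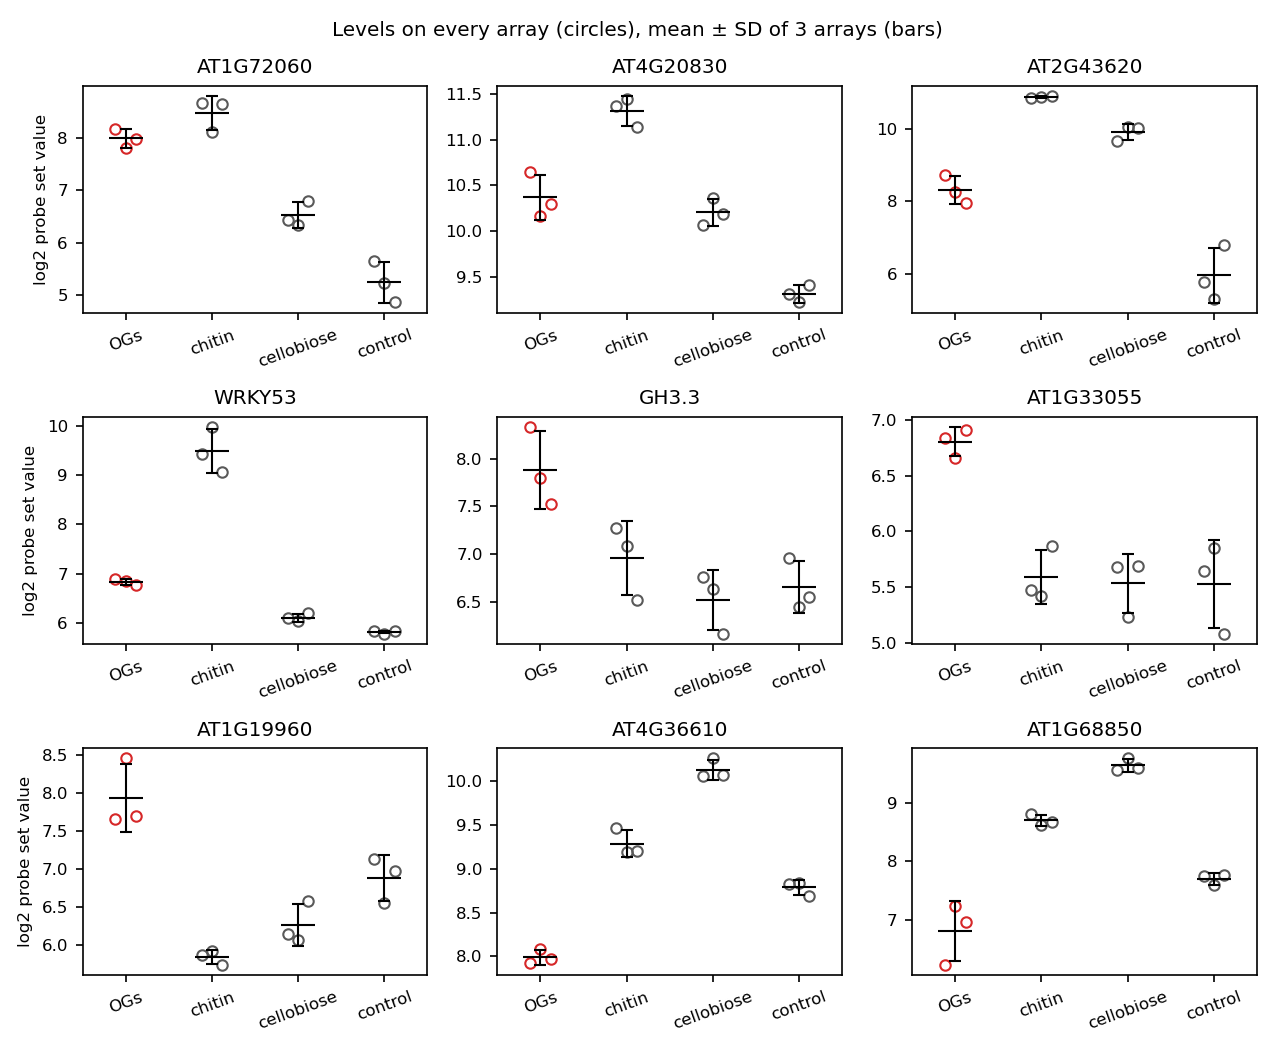
Log2 probe set values on each of the 12 arrays (circles, OGs in red) with the mean and SD of 3 arrays per group (bars) are shown for 9 genes. WRKY53 is highest with chitin, GH3.3, AT1G33055 and AT1G19960 are highest with OGs, and AT4G36610 and AT1G68850 are lowest with OGs and highest with cellobiose.

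A last group fell with OGs and was at its highest level with cellobiose. AT1G68850 had 6.24, 7.23 and 6.96 in OGs roots, against 8.80, 8.62 and 8.68 in chitin roots and 9.56, 9.76 and 9.60 in cellobiose roots. OGs arrays were the lowest of the 12, at -2.83 ± 0.19 against cellobiose (adjusted p = 2.54e-05) and -1.89 ± 0.19 against chitin (adjusted p = 0.000261). Its call against control was lost without OGs replicate 1 or 3 or control replicate 1 or 3 (adjusted p 0.0571 to 0.112). AT4G36610, an alpha/beta hydrolase gene, had 7.92, 8.08 and 7.97 in OGs roots, against 10.06, 10.26 and 10.07 in cellobiose roots and 8.83, 8.84 and 8.69 in control roots. It differed from cellobiose by -2.14 ± 0.09 (adjusted p = 4.09e-06) and from control by -0.80 ± 0.09 (adjusted p = 0.00206). AT5G13900, a lipid transfer protein-like gene, differed from cellobiose by -2.58 ± 0.17 (adjusted p = 2.78e-05) and AT1G74460 by -2.02 ± 0.12 (adjusted p = 1.24e-05). The call of AT5G13900 against control (-0.88, adjusted p = 0.0283) was lost in every leave-out fit but that without OGs replicate 2 (adjusted p 0.0523 to 0.102).

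Probe sets without a gene in the annotation held the largest called differences in both directions. The probe set 256012_at was at 8.99, 8.96 and 7.93 in OGs roots, against 4.51, 4.65 and 5.29 in control roots, at least 11.5-fold higher (adjusted p = 0.000283). It was also higher than in chitin roots, at 6.90, 7.26 and 6.76 (1.65 ± 0.28, adjusted p = 0.00839), a call lost without OGs replicate 2 (adjusted p = 0.0541). The probe set 252265_at rose 7.95-fold (adjusted p = 0.000441). On the lower side, 253502_at was at 4.20, 6.49 and 5.24 in OGs roots, against 7.29, 7.82 and 8.35 in control roots, which is 5.71-fold (adjusted p = 0.00552). The probe set 250832_at fell by 1.55 (adjusted p = 0.0243), and lost its call without OGs replicate 1 or 3 or control replicate 2 or 3 (adjusted p 0.0547 to 0.0922).

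At the threshold of 0.05, the genes just inside were GH9B8 (-0.39, adjusted p = 0.0497), AT5G43590 (0.64, adjusted p = 0.0497) and AT2G38740 (-0.52, adjusted p = 0.0498). Just outside lay AT4G31360 (-0.48, adjusted p = 0.0503), AT1G62760 (0.37, adjusted p = 0.0506) and AT1G07680 (-0.41, adjusted p = 0.0515).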

How the data were processed

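The authors deposited log2 intensities per probe set for 12 ATH1 arrays, normalized with the GCRMA algorithm per the series design text, or with Affymetrix Expression Console per the submitters' processing notes; which made them, and any version, is not given in the sources used here. Such normalization hides a shift shared by all transcripts. Precision is limited by the number of arrays. The 64 control probe sets of 22810 were left out. Of the other 22746, 13513 had 1 gene, 503 several and 8730 none in the annotation, and 13436 matched the current gene table. The brightest probe set stood for a gene (13356 genes).

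One linear model of all arrays (limma 3.58.1, lmFit and eBayes, in R 4.3.3) held 4 group terms and a block for replicate number, as the design text takes ratios within sample pairs (6 residual degrees of freedom). P-values were adjusted over 22746 probe sets (Benjamini-Hochberg, 0.05) and measure the spread between biological replicates. Deviations of same-numbered OGs and control arrays correlated at 0.19, 0.08 and -0.05, and those of differently numbered arrays at -0.28 to 0.21. On simulated data the fit recovered 98 percent of probe sets changed by log2 1 and 52 percent of those changed by 0.5. These shares hold for the simulated spread only. On the real arrays SBPASE and XTH26 each differed by more than log2 1 without a call. The shares therefore do not give the power of the fit for genes whose replicates vary widely.

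Named genes are the 15 largest changes each way that held in all 3 pairs and reached a mean of log2 5 in either group, up to 4 called members of each list by adjusted p, among genes called against control the 5 largest called differences each way from chitin and from cellobiose, 2 unannotated probe sets each way, and members named for their role. The comparison, members and 22 gene lists (236 of 677 memberships measured) were chosen with earlier results of these data known.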

Additional observations from a re-analysis of the deposited data

Results flagged for a closer look

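In OGs replicate 3 the 3′ to 5′ difference of the manufacturer's actin probe sets was 2.11 on the log2 scale, above the highest control array at 1.57, and that of the GAPDH probe sets was 1.46, above the highest control array at 0.835. These control probe sets were outside the comparison. Without this array 163 genes were called in place of 294, 120 higher and 43 lower, and 18 of the 30 genes with the largest changes were still called. Fits without OGs replicate 1 or 2 gave 130 and 141 genes, with 21 of the 30 still called in each. The part of OGs replicate 3 in the results was not tested.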

How the results depend on the processing

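Of 81 named genes and probe sets refitted against control, and of 44 named differences from chitin and 23 from cellobiose, 0 reversed under any alternative run. All had been picked as called in the main fit, so a reversal was unlikely from the outset. Of the 14 alternatives against control, averaging the probe sets of a gene could not be applied to unannotated probe sets and was not run against chitin or cellobiose. Of the 30 genes with the largest changes, 16 were called under all 14. With no replicate block 676 probe sets were called in place of 603, 542 of them shared, and 29 of the 30 genes. Of the 81, 7 lost their call with no block: AT5G66815, AT2G04400, AT1G34510, NdhS, AT1G66800, AT2G47550 and AT2G37470 (adjusted p 0.0525 to 0.11). Deviations of same-numbered OGs and control arrays correlated at up to 0.19, and those of differently numbered arrays at up to 0.21. With only the 2 groups in the fit, which leaves fewer degrees of freedom, 303 probe sets (216 higher, 87 lower) and 165 genes (110 higher, 55 lower) were called, and 24 of the 30 genes, as many as with robust eBayes. Leaving out 1 array gave 250 to 425 probe sets (156 to 284 higher, 90 to 196 lower) and 130 to 219 genes (90 to 145 higher, 40 to 89 lower). For OGs against chitin the range was 456 to 834 probe sets (94 to 373 higher, 353 to 461 lower), beside 813 (323 higher, 490 lower). For OGs against cellobiose it was 153 to 227 (46 to 74 higher, 97 to 153 lower), beside 299 (129 higher, 170 lower). Quantile normalization gave 581 probe sets, median centring 629, an intensity trend 684, and a filter on dim probe sets 627 of 14872. Of all values recomputed, counts and tests together, 2316 were labelled unchanged, 308 tests lost their call and 131 counts moved. A count was unchanged if within 1.5-fold of the main fit, which includes list counts of 0 that stayed 0. A test was unchanged if it kept its direction and its side of the threshold. Differences among probe sets under log2 5 in both groups, 5314 of the 13356 genes, are limited by background.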

Other observations

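Some gene groups outside the lists were singled out after their values had been seen, so they are described and nothing is read from their counts. Of 14 measured tropinone reductase-like genes 4 were called higher in OGs than in control roots (limma, adjusted p under 0.05), namely AT2G30670, AT2G29340 at 1.19 (adjusted p = 0.000422), AT2G29320 at 0.59 (adjusted p = 0.00418) and TRI at 0.56 (adjusted p = 0.0165), with a median of 0.004 over the 14. Of 10 measured histone genes, which package DNA and are made mostly in dividing cells, 3 were lower and the median was -0.36. They were AT3G53650 at -0.79 (adjusted p = 0.00793), HTB2 at -0.59 (adjusted p = 0.0123) and AT2G37470 at -0.49 (adjusted p = 0.0477). Leaving out 1 array left 1 to 3 of these histone calls and 2 to 4 of the tropinone reductase-like calls.

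Single genes outside the lists were also picked after their values had been seen, with no count over their families. AT4G08850, the receptor MIK2, had 10.48, 10.28 and 10.18 in OGs roots, against 9.49, 9.27 and 9.60 in control roots, with no overlap (log2 0.86 ± 0.09, adjusted p = 0.00108). AT1G74360, the nematode-response receptor NILR1, rose at least 1.87-fold (adjusted p = 0.0043), and the hydrogen peroxide sensor AT5G49760 (HPCA1) rose by 0.45 ± 0.08 (adjusted p = 0.0192, lost in 4 of 6 leave-out fits, up to 0.0724). AT2G34930, a leucine-rich repeat gene, rose by 1.57 ± 0.16 (adjusted p = 0.00097) and was higher than in chitin roots by 0.68 ± 0.16 (adjusted p = 0.0439), a call lost in every leave-out fit (adjusted p up to 0.169). Among the pectin genes named earlier, AT3G47380 kept its call against control in all 6 leave-out fits, AT3G10720 lost it in 3 and AT2G47550 in 6. AT1G47400, which encodes an IRON MAN peptide of iron uptake, had 8.28, 8.05 and 8.36 in OGs roots, against 7.30, 7.05 and 5.51 in control roots (log2 1.61 ± 0.31, adjusted p = 0.0268), and lost its call without any 1 OGs array (adjusted p 0.0613 to 0.105).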
